A study of Mus musculus with 12 samples.

Results

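The hedgehog pathway was examined through 9 genes that stand for its ligand, receptors and transcriptional response: *Shh*, *Hhip*, *Ptch1*, *Gas1*, *Smo*, *Sufu*, *Gli1*, *Gli2* and *Gli3*. They were chosen by name with earlier results of these data known, and all 9 were present among the 15687 genes with values. RNA had been sequenced from 12 subcutaneous allograft tumors of mTc11, a mouse lung cancer cell line. The CTL group held 6 tumors of cells carrying a control short hairpin RNA (shControl), and the *Filip1l*-knockdown group held 6 tumors of cells carrying a hairpin against *Filip1l*. Both kinds of cells had been transduced with lentivirus and selected with puromycin as mixed clones. Hairpins of 2 sequences were made, and which of them the sequenced tumors carried is not given in the sources used here. In both groups 1000000 cells were placed under the skin of male C57BL6/J mice aged 8 weeks, and tumors were taken on day 24 and snap-frozen. Cell line and host are both mouse, so RNA of tumor cells and of host cells could not be separated.

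In the hedgehog pathway a secreted ligand (Shh, Ihh or Dhh) binds the receptor Ptch1, which otherwise holds the membrane protein Smo inactive. Released Smo acts at the primary cilium, where Sufu restrains the Gli transcription factors. Gli2 is mostly an activator, Gli3 is mostly cut to a repressor, and Gli1 is an activator that is itself switched on by the pathway. *Ptch1*, *Hhip* and *Gli1* are its best known target genes. In the lung Shh is made by epithelium and read by neighbouring mesenchyme, which makes the pathway a usual measure of exchange between epithelial tumor cells and stroma.

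Each value is a gene's read count scaled by the size factor of its tumor (a normalized count), so that 1 gene can be compared across tumors. Reads on listed genes numbered from 17834745 to 32419578 per tumor, and a floor of 3 reads was worth 2.59 to 4.48 normalized counts. The targeted gene *Filip1l* had 1983 to 2542 normalized counts in CTL tumors and 1670 to 2184 in knockdown tumors, an overlapping difference with a log2 fold change of -0.26 (limma adjusted p = 0.00998). Defining markers of epithelium were abundant in every tumor, with *Epcam* at 3817 normalized counts or more. Of the markers that define lung epithelium, *Nkx2-1* (0.947 to 37.3 normalized counts in CTL tumors) and *Sftpc* (0 to 53.0) were low, while *Sftpd* had 832 to 2408. Knockdown replicate 1 stood apart from the rest of its group. Its 9 fibroblast markers summed to 254195 normalized counts against at most 159196 in the other 5 knockdown tumors, and its 7 leukocyte markers summed to 10097 against at most 7005.

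All 9 hedgehog genes had lower mean log2 values in *Filip1l*-knockdown than in CTL tumors. Their median log2 fold change was -0.95, against 0.01 over all genes tested. Fold changes here are of the normalized count plus 1, which understates those of low genes. The decrease was largest for *Hhip*, the secreted and membrane-bound trap for the ligand, and for the ligand *Shh* itself. *Smo*, *Gli3*, *Gli2*, *Gas1*, *Sufu* and *Ptch1* fell as well, by smaller amounts, and *Gli1* did not pass the test. At a limma adjusted p under 0.05, 8 of the 9 members were lower, where 20.7% of all genes tested were lower and 21.1% higher. With an absolute log2 fold change over 1 as well, 4 members were lower (*Hhip*, *Shh*, *Gli3* and *Smo*), where 3.97% of all genes were. For 5 members the 6 knockdown values all lay below the 6 CTL values, which was so for 10.9% of all genes. A negative log2 fold change, without a threshold, was found for 49.1% of all genes. As the 9 were chosen with earlier results of these data known, these shares are no test of the list. In these bulk tumors fewer cells of a type and less RNA per cell cannot be told apart.

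**Figure D1:**
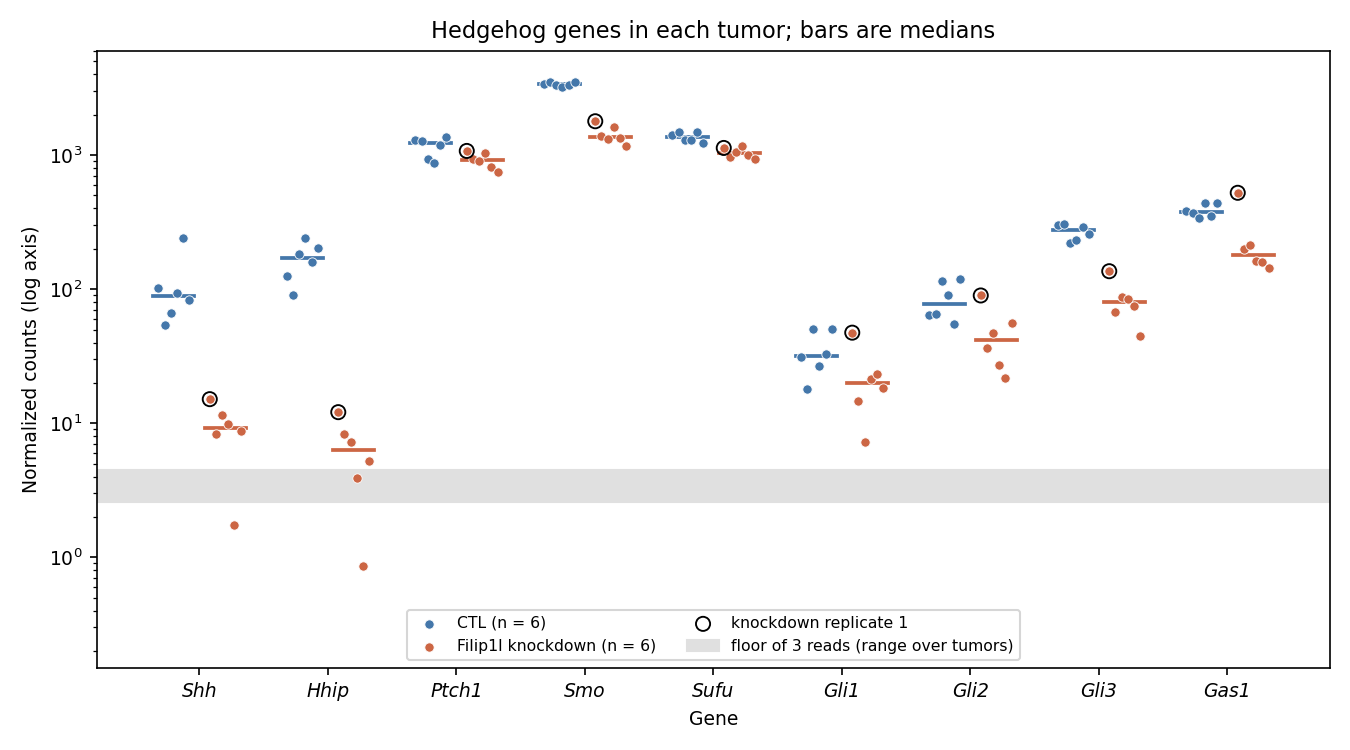
Normalized counts (log axis) of the 9 hedgehog genes in each of 6 CTL and 6 *Filip1l*-knockdown tumors. Horizontal bars are group medians, black rings mark knockdown replicate 1 and the grey band is the floor of 3 reads. *Shh* and *Hhip* of knockdown tumors lie between 0.865 and 15.1, below every CTL tumor, while the groups of *Ptch1*, *Gli1*, *Gli2* and *Gas1* overlap.

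*Shh* (ENSMUSG00000002633), the ligand, lies on chromosome 5 of GRCm38 from 28456815 to 28467256 on the - strand. It had 54.0 normalized counts in the lowest CTL tumor, a median of 88.3 and 242 in the highest, CTL replicate 5. Knockdown tumors ranged from 1.73 in replicate 5 to 15.1 in replicate 1, with a median of 9.26. Every knockdown tumor was thus below every CTL tumor, and 1 knockdown tumor was under the floor of 3 reads. From means of 107 ± 68.5 and 9.20 ± 4.41 normalized counts (SD, n = 6 each), *Shh* fell to 8.61% of the CTL mean. Its log2 fold change was -3.40 ± 0.43 (SE), with limma adjusted p = 2.55e-05 and exact permutation p = 0.00216, the smallest that 6 against 6 tumors can give. CTL replicate 5 had more than any other CTL tumor, the next being 102, and without it the log2 fold change of *Shh* was -3.13.

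The other ligand genes differed less between the groups. *Dhh*, the ligand best known from testis and nerve, had the highest mean of the ligand genes. It had 471.5 to 622 normalized counts in CTL tumors and 433 to 490.4 in knockdown tumors, with a log2 fold change of -0.28 ± 0.08 (SE, limma adjusted p = 0.00940). *Ihh*, the ligand of gut and cartilage, had 29.4 to 78.5 and 21.2 to 79.5 normalized counts, and its difference of -0.45 did not pass (limma adjusted p = 0.275). Per kb of exon, *Shh* made up 11.6% to 36.9% of the summed ligand level in CTL tumors (median 17.1%) and 0.484% to 4.80% in knockdown tumors (median 2.75%). *Dhh* made up 54.1% to 82.5% in CTL tumors and 78.7% to 88.9% in knockdown tumors. The log2 difference between *Shh* and *Dhh* changed by -3.12, and that between *Shh* and *Ihh* by -2.95 (exact permutation p = 0.00216 for each, Benjamini-Hochberg adjusted p = 0.00433 over the 8 gene pairs compared).

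Of the genes for ligand processing, *Hhat*, which attaches the fatty acid that the ligand needs, went the other way. Its 6 knockdown tumors, at 232 to 331 normalized counts, lay above its 6 CTL tumors, at 142 to 230.1, with a log2 fold change of 0.64 (limma adjusted p = 0.00205). *Disp1*, which releases the lipid-bearing ligand from the cell, fell from 483 to 632 normalized counts in CTL tumors to 305 to 419 in knockdown tumors, with a log2 fold change of -0.69 (limma adjusted p = 2.93e-05). Of the 8 genes listed for ligands and their release beside *Shh*, 2 were lower, 1 was higher and 5 did not pass, close to the shares over all genes (20.7% lower and 21.1% higher).

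*Hhip* (ENSMUSG00000064325) binds hedgehog ligands without passing on a signal, and it is itself induced by the pathway. It lies on chromosome 8 of GRCm38 from 79965851 to 80058006 on the - strand. The 250 bases before its RefSeq start, chr8:80058009-80058258 on the - strand of GRCm38.p6, are shown because *Hhip* changed most of the 9, with the cAMP response element TGACGTCA in capitals:
Hhip: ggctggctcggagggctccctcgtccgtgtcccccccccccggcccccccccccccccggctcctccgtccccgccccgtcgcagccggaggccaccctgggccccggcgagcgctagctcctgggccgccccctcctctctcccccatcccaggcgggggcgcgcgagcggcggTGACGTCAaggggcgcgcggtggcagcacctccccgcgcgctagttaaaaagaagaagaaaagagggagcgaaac

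Read from its 5′ end, this stretch was 76.0% G or C and held 28 CpG, against medians of 52.4% and 6 over 32851 RefSeq windows of the same length. The 8 letters TGACGTCA, the same on both strands, started 75 bases before the RefSeq start and were chosen after the sequence was seen. They occurred in 1.55% of all windows. The Gli consensus GACCACCCA (reverse TGGGTGGTC) was in none of the 7 member windows at hand and in 0.225% of all windows. These letters describe the windows only. The windows of *Ptch1* and *Gli3* lay inside the GENCODE spans of these genes, so bases before their outermost starts were not searched. *Shh* and *Gli1* had no window in the table used.

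In CTL tumors *Hhip* ranged from 90.0 to 239 normalized counts with a median of 171. In knockdown tumors it ranged from 0.865 in replicate 5, the worth of a single read, to 12.1 in replicate 1, with a median of 6.27. The groups did not overlap, and the highest knockdown value was still far below the lowest CTL value. The mean fell from 167 ± 53.8 to 6.29 ± 3.88 normalized counts (SD, n = 6 each), to 3.77% of the CTL mean. This was a log2 fold change of -4.68 ± 0.41 (SE), with limma adjusted p = 1.14e-06 and exact permutation p = 0.00216. Leaving out knockdown replicate 1, the highest of its group, gave -4.90. The median gene of chromosome 8 changed by -0.19 on the log2 scale. Among the 20 nearest listed genes around *Hhip*, 10 on each side, the median change was -0.46 and the lowest -1.26, so 0 of the 20 fell as far as *Hhip*.

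*Ptch1* (ENSMUSG00000021466), the main receptor and also a pathway target, lies on chromosome 13 of GRCm38 from 63508328 to 63573598 on the - strand. CTL tumors had 869 to 1359 normalized counts with a median of 1234, and knockdown tumors had 752 to 1074 with a median of 917. The groups overlapped because CTL replicates 3 and 4 had 932 and 869, while all 6 knockdown tumors were below the CTL median. *Ptch1* had a log2 fold change of -0.32 ± 0.12 (SE), with limma adjusted p = 0.0489 and exact permutation p = 0.0411. That call was lost without any 1 of CTL replicates 1, 2, 5 or 6 or of knockdown replicates 2, 3, 5 or 6, and over all 12 fits without 1 tumor the adjusted p of *Ptch1* ran from 0.0134 to 0.109, with log2 fold changes from -0.40 to -0.27.

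As *Ptch1* and *Hhip* both bind the ligand and both answer to Gli, their difference was compared in each tumor. The log2 difference between *Hhip* and *Ptch1* changed by -4.36, and that between *Hhip* and *Gli1*, the third target, by -3.93 (exact permutation p = 0.00216, adjusted over the 8 pairs 0.00433, for each). The change of *Ptch1* against *Gli1* was 0.43 and did not pass (exact permutation p = 0.323, adjusted over the 8 pairs 0.369). Among these 3 readouts of the pathway, *Hhip* thus changed by more than *Ptch1* and *Gli1*. The 8 pairs were chosen with earlier results of these data known, and the adjustment does not cover that choice.

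*Gas1* (ENSMUSG00000052957), a membrane-anchored co-receptor that helps Ptch1 bind the ligand, lies on chromosome 13 from 60174405 to 60177365 on the - strand. It had 340.2 to 443 normalized counts in CTL tumors with a median of 378. Knockdown tumors ranged from 143 to 523 with a median of 181, and that 523 belonged to replicate 1 while the other 5 had at most 214. Apart from replicate 1 the knockdown tumors were all below the CTL tumors, and replicate 1 was above all of them. *Gas1* had a log2 fold change of -0.88 ± 0.25 (SE), with limma adjusted p = 0.0110 and exact permutation p = 0.0152, and without knockdown replicate 1 it was -1.15 (limma adjusted p = 4.64e-06). Over all 12 fits without 1 tumor the adjusted p of *Gas1* ran from 4.64e-06 to 0.0272, with log2 fold changes from -1.15 to -0.77.

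Other receptor genes went both ways. *Cdon*, a second co-receptor and, beside the members, the listed receptor gene with the highest mean, had 930.0 to 1273 normalized counts in CTL tumors and 603 to 909 in knockdown tumors, with no overlap. Its log2 fold change was -0.53 ± 0.11 (SE, limma adjusted p = 0.00114). *Gpc3*, a surface proteoglycan that competes with Ptch1 for the ligand, rose by 0.78 (limma adjusted p = 0.0233). *Boc*, another co-receptor, had a difference of -0.18 that did not pass (limma adjusted p = 0.614). Its highest value in any tumor was 161 normalized counts, in knockdown replicate 1.

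*Smo* (ENSMUSG00000001761), the transducer that Ptch1 holds in check, lies on chromosome 6 of GRCm38 from 29735503 to 29761365 on the + strand. Of the 9 genes it varied least among CTL tumors in proportion to its mean. CTL tumors had 3223 to 3532 normalized counts with a median of 3362, and knockdown tumors had 1166 to 1788 with a median of 1370.2. The lowest CTL tumor was well above the highest knockdown tumor. From 3384 ± 119 to 1443 ± 227 normalized counts (SD, n = 6 each), *Smo* fell to 42.6% of the CTL mean. This was a log2 fold change of -1.24 ± 0.09 (SE), with limma adjusted p = 1.61e-07 and exact permutation p = 0.00216, and 0 of its 20 nearest genes fell as far.

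Of the 17 further genes for Smo and the cilium, 9 were lower and 2 were higher, beside 20.7% and 21.1% of all genes, and 6 did not pass. Their median log2 fold change was -0.32. Both that passed the fold threshold fell. *Gpr161*, a ciliary receptor that keeps the pathway off without ligand, had 239 to 383 normalized counts in CTL tumors and 57.7 to 122 in knockdown tumors. Its log2 fold change was -1.70 ± 0.18 (SE, limma adjusted p = 4.39e-06). *Kif7*, the ciliary kinesin that organises Gli proteins at the cilium tip, had 95.6 to 166 and 49.8 to 90.8 normalized counts in the same order of groups. It fell by 1.09 on the log2 scale (SE 0.18, limma adjusted p = 0.000247). *Arrb1*, an arrestin that binds active Smo, and *Ift88*, a subunit of the transport machinery that builds cilia, rose by 0.47 and 0.44 (limma adjusted p = 0.000244 and 0.000136). The median gene of chromosome 14, where *Ift88* lies, rose by 0.39. The other listed arrestin gene, *Arrb2*, was lower (-0.32, limma adjusted p = 0.0462). So were the transport genes *Dync2h1* (-0.58, limma adjusted p = 0.00810), *Ift122* (-0.46, limma adjusted p = 0.000128) and *Kif3a* (-0.40, limma adjusted p = 0.000386), while *Ift172* did not pass (-0.13, limma adjusted p = 0.0910).

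*Sufu* (ENSMUSG00000025231), the inhibitor that holds Gli proteins in the cytoplasm, lies on chromosome 19 of GRCm38 from 46396896 to 46488804 on the + strand. CTL tumors had 1227 to 1491 normalized counts with a median of 1355, and knockdown tumors had 930.3 to 1160.3 with a median of 1029. The groups did not overlap, though by a narrow gap. *Sufu* had a log2 fold change of -0.39 ± 0.07 (SE), with limma adjusted p = 0.000581 and exact permutation p = 0.00216. On chromosome 19 the median gene changed by -0.35, and 8 of the 20 genes nearest to *Sufu* fell further than it did. With the chromosome medians taken out of each tumor, *Sufu* changed by -0.03 and the call was lost (limma adjusted p = 0.734).

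**Figure D2:**
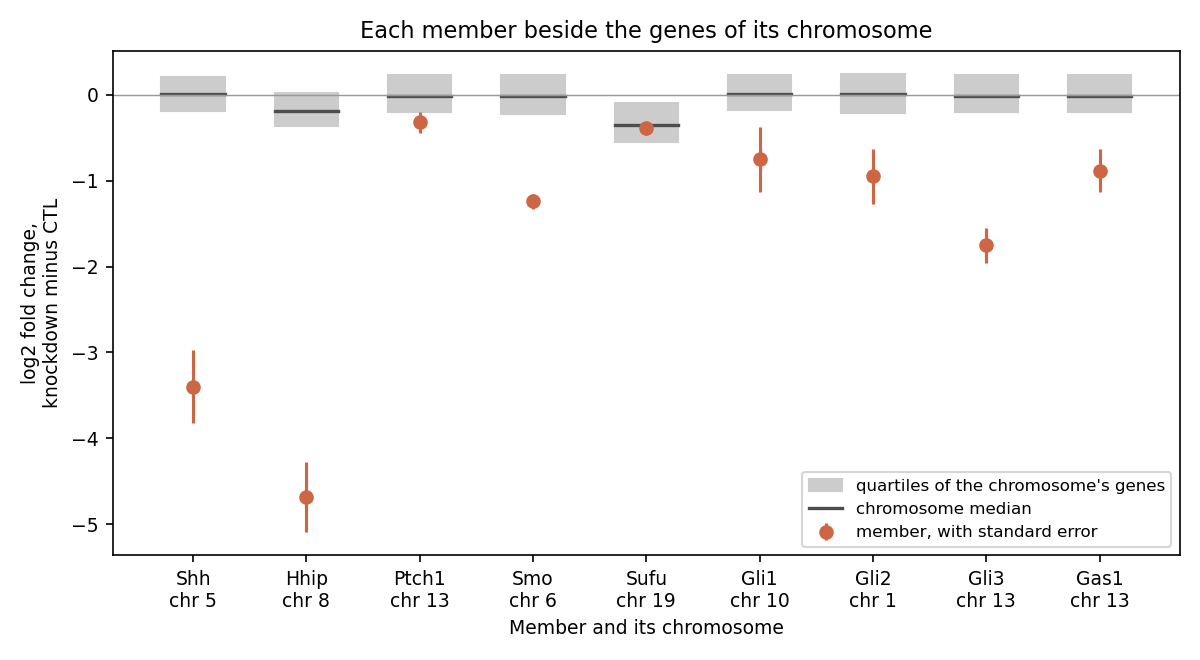
The log2 fold change of each member (points, with standard errors, from 6 against 6 tumors) beside the genes of its chromosome, whose median is a dark line and whose quartiles bound a grey box. *Sufu*, at -0.39, lies inside the box of chromosome 19, whose median is -0.35, and the other 8 members lie below the boxes of theirs.

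Counted among the 20 nearest genes of each member, chosen as for *Hhip*, none fell further than *Shh*, *Hhip*, *Smo*, *Gli1*, *Gli3* or *Gas1*. For *Gli2* 2 of 20 neighbours fell further, and for *Ptch1* 7 of 20. *Ptch1* and *Gas1* are close to each other on chromosome 13 and share neighbours.

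Among 16 other genes that control Gli proteins, 6 were lower and 2 were higher, beside 20.7% and 21.1% of all genes, and 8 did not pass. *Prkar1a*, a regulatory subunit of the protein kinase A that marks Gli proteins for processing, had the highest mean of them. It had 9829 to 10799.9 normalized counts in CTL tumors and 9311 to 10057 in knockdown tumors, and its difference of -0.08 did not pass (limma adjusted p = 0.187). *Btrc*, the ubiquitin ligase subunit that recognises phosphorylated Gli, fell most of this group, by 0.83 on the log2 scale (limma adjusted p = 5.36e-07). It lies on chromosome 19 like *Sufu*, and with chromosome medians removed *Btrc* changed by -0.47 and still passed.

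The Gli genes encode the transcription factors at the end of the pathway. *Gli1* (ENSMUSG00000025407), the activator that reports pathway activity, lies on chromosome 10 of GRCm38 from 127329882 to 127341974 on the - strand. It had 18.0 to 50.5 normalized counts in CTL tumors with a median of 31.9. In knockdown tumors it had 7.30 to 47.4 with a median of 19.9. The 47.4 again belonged to replicate 1, and the other 5 knockdown tumors had at most 23.3. *Gli1* changed by -0.75 on the log2 scale, with a 95% interval from -1.57 to 0.06 (limma adjusted p = 0.129, exact permutation p = 0.0952). The interval reaches from no change to a loss larger than that of *Smo*, so a difference was not detectable for *Gli1* with all 12 tumors. Without knockdown replicate 1 the log2 fold change was -1.01 (limma adjusted p = 0.0272), the only 1 of the 12 fits without 1 tumor in which *Gli1* passed. Over those 12 fits its adjusted p ran from 0.0272 to 0.270, with log2 fold changes from -1.01 to -0.50.

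*Gli2* (ENSMUSG00000048402), the main activator, lies on chromosome 1 of GRCm38 from 118834132 to 119053619 on the - strand. Of the 7 member windows, the 250 bases before the RefSeq start of *Gli2* (chr1:119053620-119053869, - strand, GRCm38.p6) were the only ones with the core ACCACCC of the Gli consensus. It stands there as its reverse complement GGGTGGT, in capitals:
Gli2: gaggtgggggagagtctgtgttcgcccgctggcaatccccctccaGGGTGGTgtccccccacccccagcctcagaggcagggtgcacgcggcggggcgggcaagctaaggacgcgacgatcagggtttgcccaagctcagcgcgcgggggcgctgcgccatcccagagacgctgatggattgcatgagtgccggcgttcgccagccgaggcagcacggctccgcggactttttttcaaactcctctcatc

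This core, which is part of GACCACCCA, starts 205 bases before the RefSeq start and was found on either strand in 3.92% of all 32851 windows. CTL tumors had 55.3 to 119 normalized counts of *Gli2* with a median of 78.0, and knockdown tumors had 21.6 to 89.8 with a median of 41.7. The groups overlapped, with knockdown replicate 1 at 89.8 and the other 5 knockdown tumors at 55.9 or less. The log2 fold change was -0.95 ± 0.32 (SE), with limma adjusted p = 0.0269 and exact permutation p = 0.0281. That call was lost without any 1 of CTL replicates 3, 4 or 6 or of knockdown replicates 2, 4 or 5, and over all 12 fits without 1 tumor the adjusted p of *Gli2* ran from 0.00372 to 0.0627, with log2 fold changes from -1.17 to -0.77.

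*Gli3* (ENSMUSG00000021318), the main repressor, lies on chromosome 13 of GRCm38 from 15463235 to 15730026 on the + strand. CTL tumors had 222 to 307 normalized counts with a median of 274, and knockdown tumors had 44.5 to 136 with a median of 79.7. The groups did not overlap, although replicate 1 was again the highest knockdown tumor. *Gli3* fell to 30.8% of the CTL mean, a log2 fold change of -1.75 ± 0.21 (SE) with limma adjusted p = 1.50e-05 and exact permutation p = 0.00216.

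Against each other the Gli genes were not shown to change unequally. The log2 difference between *Gli3* and *Gli1* changed by -1.002 (exact permutation p = 0.0411, adjusted over the 8 pairs 0.0658) and that between *Gli3* and *Gli2* by -0.80 (exact permutation p = 0.0736, adjusted over the 8 pairs 0.0981). The change of *Gli2* against *Gli1* was -0.20 (exact permutation p = 0.647). *Gli1* and *Gli2* had their highest values in much the same tumors. *Gli1* was highest in CTL replicate 3 with 50.5, CTL replicate 6 with 50.3 and knockdown replicate 1 with 47.4 normalized counts. For *Gli2* CTL replicates 6 and 3 had 119 and 115 normalized counts, followed by CTL replicate 4 with 90.7 and knockdown replicate 1 with 89.8.

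Genes known as Gli targets in other tissues moved in both directions. Of 13 listed beside the members 10 were analysed here, and of these 5 were lower and 3 were higher, beside 20.7% and 21.1% of all genes, and 2 did not pass. *Bmp4*, a growth factor gene that mesenchyme switches on under hedgehog signalling, fell from 843 to 1213 normalized counts in CTL tumors to 339 to 518 in knockdown tumors. Its log2 fold change was -1.17 ± 0.11 (SE, limma adjusted p = 2.47e-06), although the median gene of its chromosome 14 rose by 0.39. *Bcl2*, the survival gene, fell by 1.00 on the log2 scale (limma adjusted p = 1.81e-06), just short of the fold threshold. Rises were found for *Foxf1*, a mesenchymal transcription factor (0.94, limma adjusted p = 0.0143), *Ccnd2*, a cyclin of the early cell cycle (0.80, limma adjusted p = 8.98e-05) and the growth regulator *Mycn* (0.66, limma adjusted p = 0.00155). *Foxf1* was low, with 15.2 to 27.0 normalized counts in CTL tumors and 22.5 to 70.9 in knockdown tumors. Its relative *Foxf2* was far higher, with 2394 to 2950 and 1646 to 2289 normalized counts, and fell by 0.43 (limma adjusted p = 0.00177). Also lower were *Osr1* (-0.58, limma adjusted p = 0.00554) and *Ccnd1*, another cyclin (-0.20, limma adjusted p = 0.0286).

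Over the whole list of other pathway genes, 55 of 60 were analysed here. Of these 55, 23 were lower and 9 higher at a limma adjusted p under 0.05, beside 20.7% and 21.1% of all genes tested, and 23 did not pass. With the fold threshold 3 were lower and 0 higher, beside 3.97% and 6.20% of all genes. The median log2 fold change of the list was -0.20, against -0.95 for the 9 members and 0.01 for all genes.

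**Figure D3:**
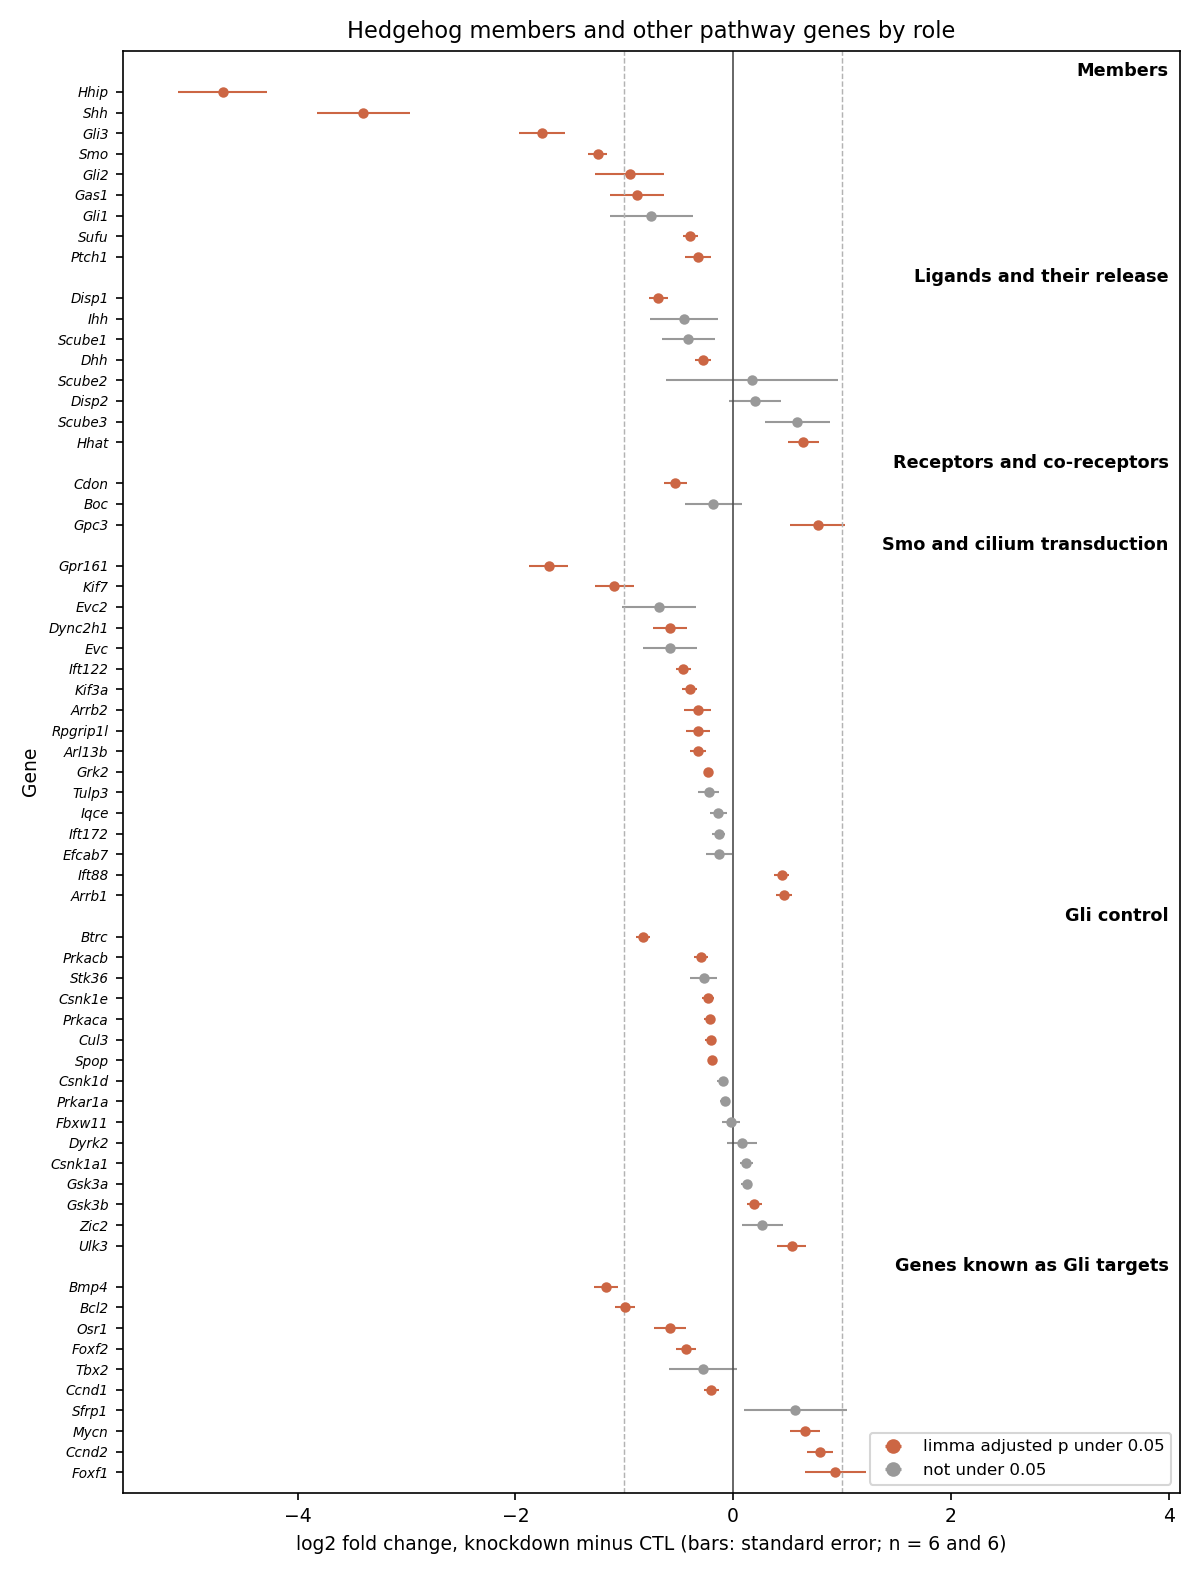
The log2 fold change (knockdown minus CTL, with standard errors, 6 against 6 tumors) of the 9 members and of other pathway genes by role. Colour marks a limma adjusted p under 0.05 and dashed lines mark a log2 fold change of -1 and 1. Every member lies left of 0, while each group of other genes holds values on both sides, with *Gpr161* (-1.70), *Kif7* (-1.09) and *Bmp4* (-1.17) left of -1.

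Levels of different genes were compared per kb of exon. In CTL tumors the order was *Smo* with 602 normalized counts per kb, *Sufu* 178, *Gas1* 131, *Ptch1* 81.5, *Shh* 37.5, *Gli3* 28.0, *Hhip* 18.4, *Gli2* 12.4 and *Gli1* 6.99. *Smo*, *Sufu*, *Gas1* and *Ptch1* did not overlap with their neighbours in this order over the 6 CTL tumors, except for *Ptch1* with *Shh*, and from *Ptch1* down each gene overlapped with the next. In knockdown tumors *Smo* was still first with 257 normalized counts per kb, followed by *Sufu* with 135, *Gas1* with 79.0 and *Ptch1* with 64.7. *Gli3* had 8.61, *Gli2* 6.75, *Gli1* 4.42, *Shh* 3.23 and *Hhip* 0.693 per kb. There the ranges of neighbours were apart only between *Smo* and *Sufu* and between *Ptch1* and *Gli3*. *Shh* and *Hhip*, at ranks 5 and 7 in CTL tumors, were thus the last of the 9 in knockdown tumors.

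Markers of some other cell types were also called at a limma adjusted p under 0.05. Of all genes 20.7% were called lower and 21.1% higher. The 9 fibroblast markers summed to 161212 to 263548 normalized counts in CTL tumors and to 75526 to 254195 in knockdown tumors. Of the 9, 3 were lower (*Col1a1*, *Col1a2* and *Thy1*), 0 were higher and the rest, such as *Dcn* and *Pdpn*, did not pass. In knockdown replicate 1 most of the sum was collagen RNA (*Col1a1* 94251, *Col1a2* 80057 and *Col3a1* 69588). The mean log2 level of the 9 fibroblast markers was then used as a covariate, an alternative chosen after seeing the data. With it the members kept negative log2 fold changes. *Shh*, *Hhip*, *Smo*, *Sufu*, *Gli3* and *Gas1* still passed as lower, as did 17.9% of all genes. *Gas1* shrank from -0.88 to -0.47 (limma adjusted p = 0.0270), while *Ptch1* at -0.26 (limma adjusted p = 0.158) and *Gli2* at -0.51 (limma adjusted p = 0.138) no longer did. Knockdown replicate 1 had the highest knockdown value of 8 of the 9 members, all but *Sufu*, and it also had the highest fibroblast sum of its group. Without that tumor 9 of 9 members were lower at an adjusted p under 0.05 and 7 passed both thresholds, with *Gli1*, *Gli2* and *Gas1* added. Over all genes the shares lower in that fit were 21.8% and 4.68%, against 20.7% and 3.97% with all 12 tumors. Over all 12 fits without 1 tumor, 6 to 9 members were lower at an adjusted p under 0.05.

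Epithelial markers (6 of 6 measured) summed to 149310 to 196100 normalized counts in CTL tumors and 215093 to 394086 in knockdown tumors, with 5 higher and 0 lower. The 8 skeletal muscle markers summed to 2105 to 11483 in CTL tumors and 5154 to 84404 in knockdown tumors, with 7 higher. Endothelial markers were higher for 5 of 6, leukocyte markers for 3 of 7 and adipocyte markers for 2 of 3. Of the 7 pericyte and smooth muscle markers 1 was higher and 1 lower. Of the 5 epidermal ones 2 were lower, and of the 4 Schwann cell ones 2 were higher. Over all genes 20.7% were lower and 21.1% higher, and these lists are short. Among 6 lung epithelial markers 2 were higher, and *Foxj1*, the regulator of motile cilia, was lower, from 87.0 to 140 normalized counts in CTL tumors to 17.5 to 44.4 in knockdown tumors. *Adipoq* and *Sftpc* were near 0 in at least 1 CTL tumor, with lowest values of 1.49 and 0 normalized counts. The part of any of these cell types, fibroblasts included, in the hedgehog results was not tested.

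**Figure D4:**
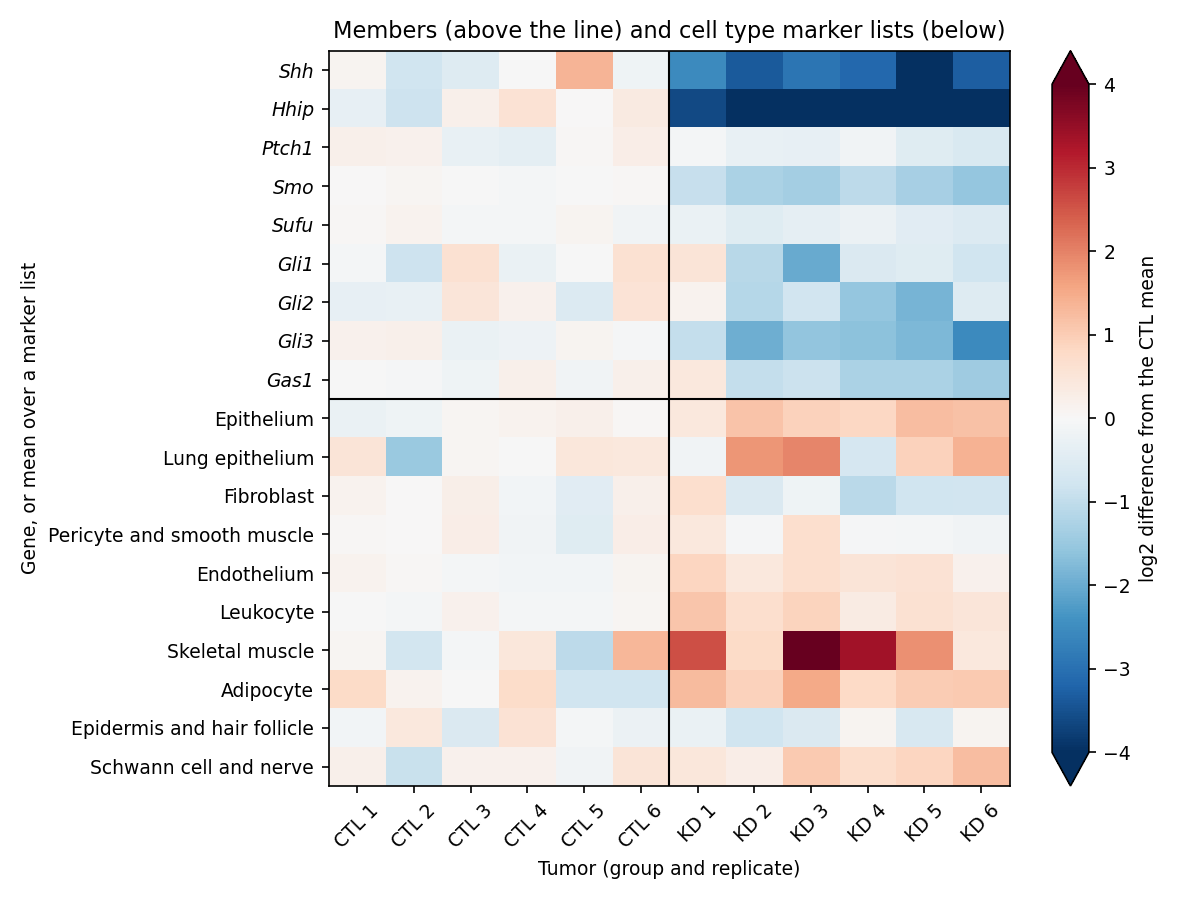
Difference from the CTL mean on the log2 scale (colour, cut at -4 and 4) in each of the 12 tumors for the 9 members and, below the line, for the mean over each list of cell type markers. In the knockdown tumors the members are at or below the CTL mean except *Gli1*, *Gli2* and *Gas1* in replicate 1, and the fibroblast list is above it only in replicate 1.

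The genes most like *Hhip*, *Shh* and *Gli1* were sought over the 12 tumors by the root mean square difference between centred log2 values, a measure that a shared difference between groups makes small. Closest to *Hhip* were *4930461G14Rik* (0.59) and the eye and brain transcription factor gene *Pax6* (0.60), where the median over all genes was 2.46. *Pax6* fell from 521 ± 157 to 34.5 ± 28.3 normalized counts (SD, n = 6 each). Closest to *Shh* were *Gm20467* (0.61), *Pank1*, a kinase of coenzyme A synthesis (0.66), and *Nrk* (0.67), where the median was 1.87. Closest to *Gli1* were *Plekhs1* (0.33), *Grb14*, an adaptor of the insulin receptor (0.39), and *Il18r1*, a receptor chain for interleukin 18 (0.40), where the median was 0.79. *Plekhs1*, with 458 ± 151 and 242 ± 103 normalized counts (SD, n = 6 each), passed at a log2 fold change of -0.95 (limma adjusted p = 0.0105), while *Gli1* did not.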

How the data were processed

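RNA of 12 tumors was sequenced from poly(A)-selected libraries. Per the submitters' processing notes, the authors trimmed reads with Trimmomatic 0.36, aligned them to mm10 with STAR 2.5.2b and counted genes with featureCounts of Subread 1.5.2. The deposited values are a signal, counts divided by each tumor's DESeq2 size factor by the authors. They are not corrected for length. Values step by a smallest unit, taken as 1 read, but in 3 tumors this step is so close to 1 that recovered reads could not be checked, so no count test was run. The step gave the floors, which cover counting error only.

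Groups came from the labels. Log2 of the value plus 1 was compared with limma 3.58.1 in R 4.3.3 (mean-variance trend, Benjamini-Hochberg over 15687 genes). A filter at a mean of 5 removed no gene. Genes were called at an adjusted p under 0.05, and also with an absolute log2 fold change over 1. Exact two-sided permutation tests used the labels of 6 against 6 tumors. P-values measure the spread between tumors, not that between separately transduced cell populations. How many such populations the tumors of a group came from is not given. An effect of the hairpin and a difference between the transduced populations therefore cannot be told apart. Chromosome medians used genes with a mean of at least 50, as did the counts of nearest genes, which also took in the members. Positions and exons came from GENCODE vM21 (GRCm38), and promoter windows from RefSeq (GRCm38.p6), found for 7 of 9 members. The limma fit was tested on simulated reads with the same setting of the spread between tumors for every gene. That test does not cover genes with a wider spread.

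Members, lists and tests were chosen with earlier results of these data known. Named were every member, pathway genes past both thresholds or, in a role with none, with the highest mean, the 3 genes most like *Hhip*, *Shh* and *Gli1*, *Filip1l*, and marker sums. All other genes with a value were named after their values were seen. A few single genes that these rules would name are not reported here.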

Additional observations from a re-analysis of the deposited data

Results flagged for a closer look

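In a test of the highest and lowest tumor of each member in each group (18 groups of 6 tumors), 2 tumors stood apart from the rest of their group, where chance gives about 1 in 20 groups. The gaps are of normalized counts, not of log2 values, and that rate of chance holds for values with a normal spread. For *Shh*, CTL replicate 5 had 242 normalized counts and the next CTL tumor 102, a gap of 0.745 of the range of the group. On the log2 scale, as differences from the CTL mean, that tumor had 1.36, the next 0.12 and the lowest -0.79. For *Gas1*, knockdown replicate 1 had 523 normalized counts and the next knockdown tumor 214, a gap of 0.814 of the range.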

How the results depend on the processing

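Over 22 alternatives the 9 members gave 198 values, of which 0 reversed, 178 stayed on their side of the threshold, 19 fell short of it and 1 crossed it. The calls of *Shh*, *Hhip*, *Smo*, *Gli3* and *Gas1* held in all 22, although *Gas1* shrank to -0.47 with the fibroblast covariate. *Ptch1* fell short with limma without a trend (-0.32, adjusted p = 0.0715) and with the fibroblast covariate chosen after seeing the data (-0.26), as did *Gli2* with that covariate (-0.51), and *Sufu* with chromosome medians removed (-0.034). Without 1 tumor, log2 fold changes ran from -0.40 to -0.27 for *Ptch1*, from -1.17 to -0.77 for *Gli2* and from -1.01 to -0.50 for *Gli1*, and the members lower past both thresholds numbered 4 to 7. The causes were not tested, beyond what the settings themselves change.

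With the replicate number as a block, *Ptch1* had -0.32 and no longer passed (limma adjusted p = 0.0783), and the block changed no other member's call. The numbers share no known animal or batch, same-numbered tumors correlated from -0.269 to 0.0990, and 0 of 6 CTL tumors matched their own number best. *Hhip* and *Shh* are limited by depth, since both had a knockdown tumor under the floor, and with a pseudocount of 8 their log2 fold changes shrank to -3.60 and -2.62.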
